A study of Mus musculus with 4 samples.

Results

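A set of 47 mitosis genes, which encode proteins of the mitotic spindle, the kinetochore and the condensin complex and the kinases that act on them, was followed in Ter119+ cells sorted from mouse bone marrow. The genes were taken by symbol from count tables of 56691 genes: all 47 were found, each in 1 row, and all 47 passed the filter on low counts that left 13052 genes for testing. Poly(A) RNA was sequenced from 2 libraries labelled Med16 KO and 2 libraries labelled Med16 fl/fl, which carry floxed alleles of Med16, and all 4 carry the time label of 3 weeks. Med16 encodes a subunit of Mediator, which links transcription factors to RNA polymerase II, and Ter119 marks erythroid cells from erythroblasts to mature red cells. The comparison asks how loss of this subunit changes the RNA of the erythroid fraction. The labels used here do not name the Cre line, say whether 3 weeks is an age or a time after deletion, or say whether replicate libraries come from different animals. The p-values therefore speak only to the scatter among 4 libraries, and that scatter may be technical.

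Mitosis genes form a well-known expression program that peaks in G2 and M phase. Their proteins condense the chromosomes, build the bipolar spindle, attach each chromatid to microtubules through the kinetochore, hold anaphase back until attachment is complete and then cut the cell apart. Erythroblasts divide several times while they make haemoglobin, leave the cell cycle before they expel the nucleus, and no longer transcribe these genes as reticulocytes. In many species the promoters of such genes hold CCAAT boxes and a cell cycle genes homology region (CHR), a short element through which the DREAM complex represses them in resting cells and the MYB-MuvB and FOXM1 factors activate them in G2.

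The promoter stretches below show this arrangement in 3 genes that fell in Med16 KO (Top2a, Kif11 and Ube2c) and in 1 whose level was nearly the same in both genotypes (Cdc20); the 4 were chosen after their values were seen. Each is the 130 bases before the annotated start of the gene on its own strand, written 5′ to 3′, from the RefSeq annotation of build GRCm38.p6, another build than that of the counts. Capitals mark CHR letters (TTTGAA or TTCGAA) and CCAAT boxes (CCAAT), both searched on both strands, so that TTCAAA and ATTGG are also marked.
Top2a, chr11:99024190-99024319, minus strand: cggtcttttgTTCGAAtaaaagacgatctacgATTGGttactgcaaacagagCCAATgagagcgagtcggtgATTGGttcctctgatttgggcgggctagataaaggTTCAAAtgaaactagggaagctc
Kif11, chr19:37376252-37376381, plus strand: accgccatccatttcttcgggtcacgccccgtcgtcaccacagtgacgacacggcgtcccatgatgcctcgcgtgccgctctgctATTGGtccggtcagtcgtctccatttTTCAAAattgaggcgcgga
Ube2c, chr2:164769799-164769928, plus strand: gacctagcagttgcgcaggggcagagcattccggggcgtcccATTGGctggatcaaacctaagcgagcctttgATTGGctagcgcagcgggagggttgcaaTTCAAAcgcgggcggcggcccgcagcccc
Cdc20, chr4:118437344-118437473, minus strand: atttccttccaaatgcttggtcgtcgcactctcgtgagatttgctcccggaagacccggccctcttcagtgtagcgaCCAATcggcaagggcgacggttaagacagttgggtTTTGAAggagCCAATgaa
In Kif11 the CHR begins 19 bases before the start and the CCAAT box 45 bases before it. Ube2c has the CHR at 29 and CCAAT boxes at 57 and 88 bases before the start, and Top2a has CHR letters at 23 and 120 and CCAAT boxes at 58, 78 and 98. In Cdc20 the CHR lies at 18 and the CCAAT boxes at 8 and 53 bases before the start, so these letters were present at similar distances in genes that fell and in a gene that was not called.

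The libraries held 6749196 to 7216333 counts assigned to genes. Med16 had 16 and 30 counts in the KO libraries, against 164 and 127 counts in the fl/fl libraries (log2 fold change -2.64, SE 0.34), so its level followed the labels in all 4 libraries. All 12 erythroid markers examined were detected in every library. Markers of other marrow cells were present as well and are described at the end.

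The 47 genes were mostly lower in Med16 KO. By edgeR's quasi-likelihood test with Benjamini-Hochberg adjustment over all genes tested, 33 of 47 fell and 0 rose, against 9.89% of all genes tested called lower and 8.5% called higher. No member was higher at an unadjusted p under 0.05 in any setting tried or with DESeq2. DESeq2 called 32 members lower, beside 7.94% of all genes tested. The median log2 fold change of the 47 was -0.41, against 0.02 over all genes tested, and single genes ranged from -0.84 to 0.03. Both KO libraries lay below both fl/fl libraries in 42 of 47 genes, against 28.2% of all genes tested. In these bulk samples, a changed mix of cell types, fewer cells in mitosis and less mitotic RNA per cell cannot be told apart. Markers of erythroid cells and of neutrophil progenitors moved with genotype too, as described at the end.

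Taken as a sum, the 47 genes made up 1.17% and 1.14% of assigned counts in the KO libraries, against 1.62% and 1.64% in the fl/fl libraries. On the CPM scale (TMM-scaled counts per 1e6 assigned counts) the sum was 11430 and 11309 in KO, against 16453 and 16709 in fl/fl, or 11369 ± 85.6 against 16581 ± 181 (SD, n = 2 each), a log2 difference of -0.54 between the means. Mki67 alone made up 24.0% and 23.8% of that sum in KO, against 27.7% and 28.3% in fl/fl. Without it the log2 difference was -0.47.

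The calls rest on a small spread between the libraries of a genotype. As a biological coefficient of variation shared by all genes, this spread was fitted at 0.125. Assuming 0.2 instead, the test called 0 of the 47 lower, beside 2.21% of all genes tested. In that fit 15 members were still lower at an unadjusted p under 0.05, for which no share of all genes is given. A fold change below 0 was found for 45 members, and in the reported fit for 6331 of 13052 genes tested. Without fl/fl library 1 the test called 29 members lower, beside 5.53% of all genes, and without fl/fl library 2 it called 24, beside 5.05%. Without KO library 1 or 2 it called 38 and 39, beside 15.7% and 15.8% of all genes. In such fits only the complete genotype gives a spread, and the lone library is assumed to vary like it. In 24 members the call held under every alternative other than the assumed variation.

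**Figure D1:**
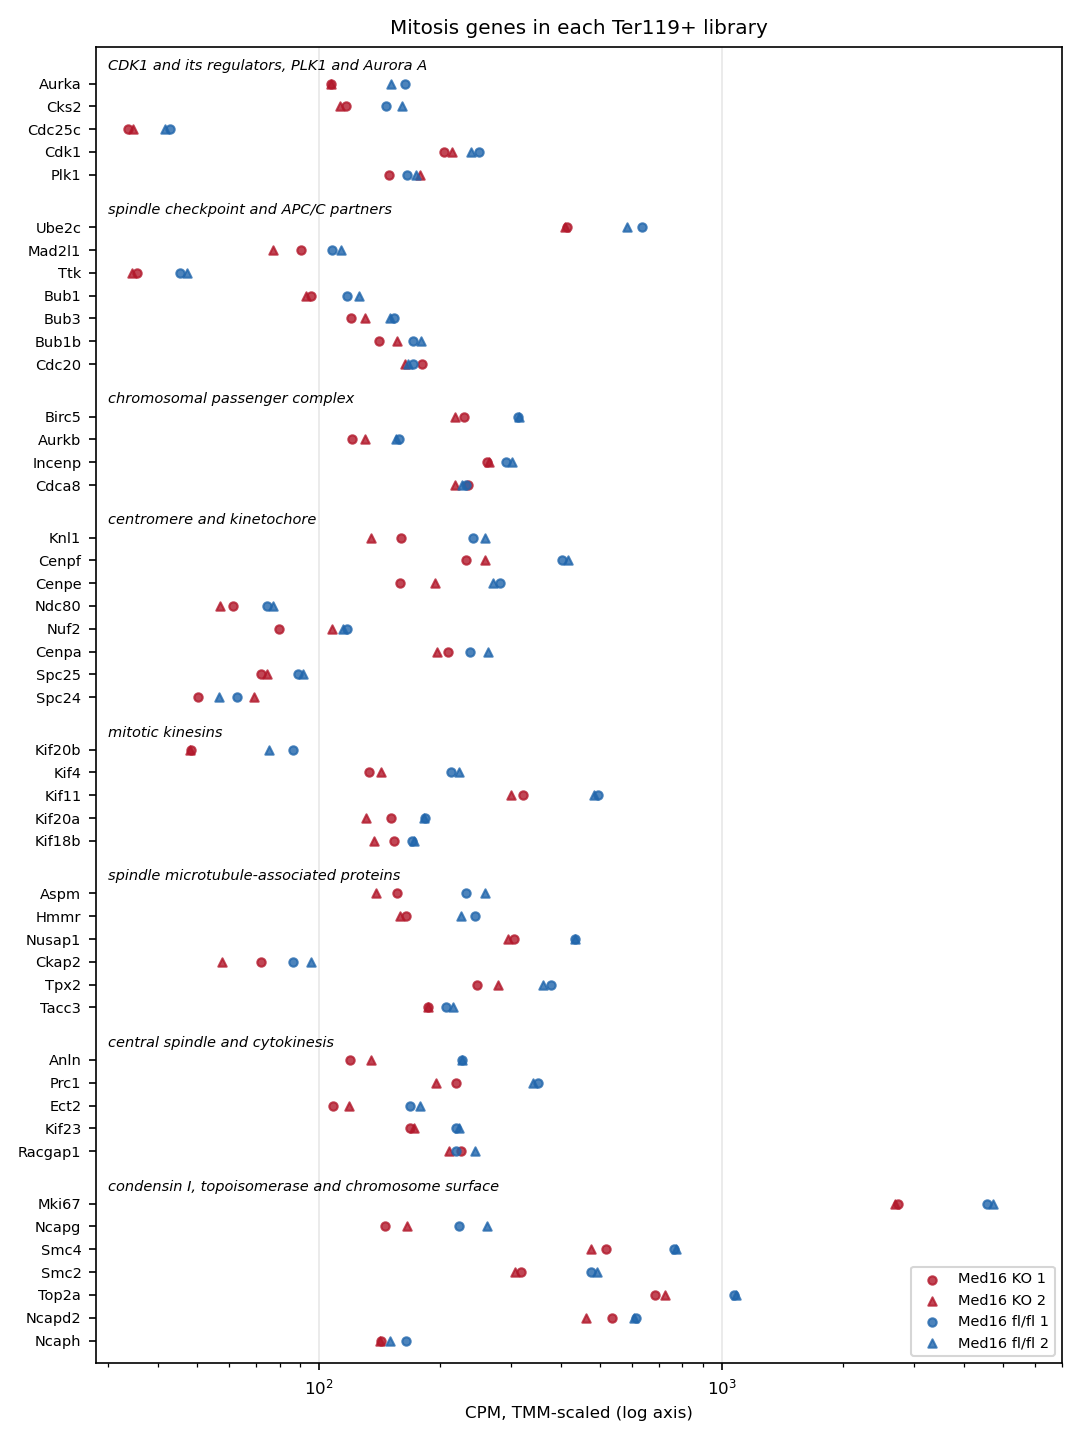
CPM of each of the 47 mitosis genes (log axis) in the 4 libraries, grouped by role and sorted by fold change within a group; red marks Med16 KO, blue Med16 fl/fl, circles library 1 and triangles library 2. In 42 genes both red points lie left of both blue points; the 5 exceptions are Plk1, Cdc20, Cdca8, Spc24 and Racgap1.

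Of 5 genes for CDK1, its regulators, PLK1 and Aurora A, 3 were called lower: Aurka, Cks2 and Cdk1. All 5 had a fold change below 0, from -0.55 to -0.05 on the log2 scale, and differences between them were not tested. Aurka, whose kinase matures centrosomes and the spindle poles, had 107 and 108 CPM in KO, against 164 and 151 CPM in fl/fl (log2 fold change -0.55, SE 0.084, edgeR adjusted p = 2.2e-04). The KO libraries were almost equal and lay well below both fl/fl libraries. Cks2, a small protein that binds CDK1 and helps it to phosphorylate its targets, had 117 and 113 CPM in KO, against 147 and 161 CPM in fl/fl (-0.42, SE 0.085). Cdk1 itself, the kinase that drives entry into mitosis, had 204 and 214 CPM in KO and 249.9 and 239 CPM in fl/fl, and its fold change was the smallest of those called (-0.23, SE 0.067, edgeR adjusted p = 0.027). That call ended under scaling by library size alone (-0.17), under a GC content offset (-0.18) and without fl/fl library 1 (-0.21) or 2 (-0.27), and without fl/fl library 2 Cks2 was not called either (-0.36), which left 1 of the 5.

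Plk1, which encodes a kinase needed for centrosome maturation and mitotic exit, stood apart from Aurka. It had 149.8 and 178 CPM in KO, against 165 and 175 CPM in fl/fl, so that the fl/fl libraries lay between the KO libraries (-0.05, 95% interval -0.24 to 0.13). The ratio of Plk1 to Aurka counts was 1.40 and 1.66 in KO, against 1.01 and 1.15 in fl/fl. Such a ratio does not depend on the scaling of the libraries, but it does not remove a trend with GC content. Cdc25c, the phosphatase that activates CDK1, had 33.6 and 34.6 CPM in KO and 42.8 and 41.5 CPM in fl/fl, without overlap but with a 95% interval of -0.63 to 0.02 at this low level.

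Of 7 genes of the spindle checkpoint and of the anaphase-promoting complex (APC/C), 4 were called lower. In 6 of the 7 both KO libraries lay below both fl/fl libraries. Ube2c, the ubiquitin-conjugating enzyme that works with the APC/C to destroy cyclin B and securin, had the highest CPM of the 7 and the largest fall: 414 and 408 CPM in KO, against 634 and 582 CPM in fl/fl (-0.56, SE 0.054, edgeR adjusted p = 2.3e-06). Cdc20, the activator that brings substrates to the same complex, had 181 and 164 CPM in KO and 172 and 167 CPM in fl/fl, with overlapping libraries (0.03, 95% interval -0.14 to 0.20). The ratio of Cdc20 to Ube2c counts was 0.437 and 0.402 in KO, against 0.270 and 0.286 in fl/fl. Ube2c shares 22.8% of its exon bases with Tnnc2 on the opposite strand, which had at most 7 counts in a KO library and 23 in a fl/fl library, and the strand setting of the counting is not given in the sources used here.

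The checkpoint proteins proper hold Cdc20 inactive until every kinetochore is attached. Mad2l1, which binds Cdc20 directly, had 90.2 and 76.9 CPM in KO, against 108 and 114 CPM in fl/fl (-0.41, SE 0.10). Bub1, the kinase that recruits the checkpoint to kinetochores, fell by 0.37 and its partner Bub3 by 0.28 on the log2 scale. All 3 calls ended with a GC content offset (-0.21 for Mad2l1, -0.19 for Bub1 and -0.23 for Bub3) and without fl/fl library 2 (-0.38, -0.33 and -0.30). Under the GC content offset Bub1b was newly called (-0.27), so that 2 of the 7 were lower, and without fl/fl library 2 only Ube2c was. Bub3 was also not called with library size as the only scaling (-0.23) or without fl/fl library 1 (-0.28).

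Bub1b and Ttk missed the threshold although their genotypes did not overlap. Bub1b, which encodes the BubR1 subunit of the mitotic checkpoint complex, had 141 and 157 CPM in KO and 172 and 179 CPM in fl/fl (-0.24, edgeR adjusted p = 0.052). Ttk, the kinase MPS1 that starts checkpoint signalling, had 35.4 and 34.3 CPM in KO and 45.2 and 46.99 CPM in fl/fl (-0.40, edgeR adjusted p = 0.07). Both lay close to the threshold: Bub1b was called under 7 alternatives, at -0.24 to -0.32, among them the fit without KO library 2, and Ttk without KO library 1 (-0.44) or 2 (-0.39).

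In the chromosomal passenger complex, which corrects faulty attachments and guides cytokinesis, 2 of 4 subunits fell. Birc5, the survivin subunit that docks the complex on chromatin, had 229.9 and 218 CPM in KO, against 313 and 315 CPM in fl/fl (-0.49, SE 0.062, edgeR adjusted p = 4.1e-05). Its kinase subunit Aurkb had 121 and 130.5 CPM in KO and 158 and 155 CPM in fl/fl (-0.32, SE 0.082), a call that ended without fl/fl library 1 (-0.32) or 2 (-0.34), which leaves 1 of the 4. The scaffold Incenp had 261 and 265 CPM in KO and 291 and 302 CPM in fl/fl (-0.17, edgeR adjusted p = 0.059); it was called without KO library 1 (-0.18) or 2 (-0.20), and with a GC content offset its fold change was -0.32 and called. Cdca8, the borealin subunit, had 235 and 218 CPM in KO and 232 and 226 CPM in fl/fl, with overlapping libraries and a 95% interval of -0.16 to 0.13. The 4 subunits, which work as a unit, thus changed unequally: the ratio of Cdca8 to Birc5 counts was 1.02 and 1.00 in KO, against 0.741 and 0.719 in fl/fl.

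Of 8 centromere and kinetochore genes 5 fell, and the large proteins of the outer kinetochore had the largest fold changes. Knl1, the scaffold that binds the checkpoint proteins BUB1 and BUB3, had 159.9 and 135 CPM in KO, against 242 and 259 CPM in fl/fl (-0.76, SE 0.084, edgeR adjusted p = 9.7e-06). Cenpf, a very large protein of the outer kinetochore, had the highest CPM of the 8, not corrected for its long transcript, with 232 and 258 CPM in KO and 402 and 416 CPM in fl/fl (-0.74, SE 0.064). Cenpe, a kinesin that carries chromosomes to the spindle equator, fell by 0.64 on the log2 scale, with 159 and 195 CPM in KO and 282 and 272 CPM in fl/fl. In all 3 genes the higher KO library stayed far below the lower fl/fl library. Cenpa, the histone H3 variant that marks the centromere, had a smaller fold change (-0.30, SE 0.072); this call ended without fl/fl library 2 (-0.24).

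The NDC80 complex, which grips the microtubule end, has 4 subunits, all in this set, and 1 of them was called. Ndc80 had 61.3 and 56.8 CPM in KO, against 74.5 and 76.9 CPM in fl/fl (-0.36, SE 0.11, edgeR adjusted p = 0.039), a call that ended with DESeq2 (-0.37), library size as the only scaling (-0.30), a GC content offset (-0.20) and without fl/fl library 1 (-0.39) or 2 (-0.35). Nuf2 had 79.7 and 108 CPM in KO and 117 and 115 CPM in fl/fl: KO library 1 was far lower than the other 3 libraries, and without KO library 2 the gene was called at -0.56. Spc25 had 72.0 and 74.4 CPM in KO and 88.8 and 91.4 CPM in fl/fl (-0.30, edgeR adjusted p = 0.054), and was called without KO library 1 (-0.29) or 2 (-0.34). Spc24 had 50.1 and 69.1 CPM in KO and 62.5 and 56.5 CPM in fl/fl, so that the KO libraries lay on either side of both fl/fl libraries (0.00, 95% interval -0.31 to 0.31). Without fl/fl library 2, where Ndc80 and Cenpa lost their calls, 3 of the 8 centromere and kinetochore genes were lower.

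Among 5 mitotic kinesins, motor proteins that walk along microtubules, 4 fell. Kif11, the motor that pushes the spindle poles apart, had the highest CPM of the 5, with 322 and 300.4 CPM in KO and 494 and 482 CPM in fl/fl (-0.65, SE 0.056, edgeR adjusted p = 8.5e-07). Kif20b, which acts in late mitosis and cytokinesis, had the lowest CPM and the largest fall: 48.3 and 48.0 CPM in KO, against 86.4 and 75.2 CPM in fl/fl (-0.75, SE 0.12). Kif4, the chromokinesin that works with condensin on chromosome arms, had 134 and 143 CPM in KO and 213 and 223 CPM in fl/fl (-0.66, SE 0.075). Kif4 shares 15.1% of its exon bases with the opposite-strand gene Pdzd11, which was not called (-0.15), and the tables also hold a pseudogene named Kif4-ps, with which reads may be shared. For these 3 motors the KO level was between 59.6% and 63.8% of the fl/fl level. Kif20a, which moves the passenger complex to the central spindle, fell by 0.37 on the log2 scale; it shares 29.3% of its exon bases with the opposite-strand gene Cdc23, which fell by 0.54, and without a strand setting their reads in that stretch cannot be told apart. Kif18b, which regulates astral microtubules, had 154 and 137 CPM in KO and 171 and 173 CPM in fl/fl (-0.24, edgeR adjusted p = 0.052), and was called without KO library 1 (-0.34) and with a GC content offset (-0.41).

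Spindle microtubule-associated proteins were lower for 5 of 6 genes. Nusap1, which bundles microtubules near chromatin, was the most abundant on the CPM scale, with 305 and 296 CPM in KO and 434 and 434 CPM in fl/fl (-0.53, SE 0.055, edgeR adjusted p = 5.5e-06). Aspm, which focuses the spindle poles and whose human counterpart is mutated in microcephaly, had 157 and 139 CPM in KO, against 232 and 259 CPM in fl/fl (-0.73, SE 0.081). Hmmr, a spindle assembly factor, had 164 and 159 CPM in KO and 244 and 225 CPM in fl/fl (-0.54, SE 0.073). The replicates of each genotype lay close together and apart from the other genotype in all 3. Tpx2, which activates Aurora A on the spindle, fell by 0.49 on the log2 scale, as did Ckap2, which was no longer called under the GC offset (-0.34) and without fl/fl library 2 (-0.43). Tacc3, a stabiliser of spindle fibres, had 186 and 187 CPM in KO and 207 and 216 CPM in fl/fl (-0.18, edgeR adjusted p = 0.09), and passed the threshold without KO library 1 (-0.19) or 2 (-0.20) and with a GC content offset (-0.27).

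Genes of the central spindle and of cytokinesis were lower for 4 of 5 and held the largest fall of the set. Anln, the anillin that scaffolds the contractile ring, had 119.6 and 135 CPM in KO, against 227 and 227 CPM in fl/fl, a fall of 44.0% (-0.84, SE 0.079, edgeR adjusted p = 1.9e-06). Prc1, which bundles the antiparallel microtubules of the central spindle, had 219 and 196 CPM in KO and 349.9 and 341 CPM in fl/fl (-0.74, SE 0.067); it shares 11.1% of its exon bases with the opposite-strand gene Rccd1, which fell by 0.75. Ect2, the exchange factor that switches on RhoA at the cleavage plane, fell by 0.61 on the log2 scale. Kif23 and Racgap1 encode the partners of centralspindlin, which recruits Ect2, and only Kif23 was called: it had 168 and 173 CPM in KO and 219 and 223 CPM in fl/fl (-0.37, SE 0.070). Racgap1 had 225 and 210.5 CPM in KO and 219.8 and 244 CPM in fl/fl, with overlapping libraries (-0.09, 95% interval -0.24 to 0.07). Their count ratio, Racgap1 over Kif23, was 1.34 and 1.22 in KO, against 1.01 and 1.09 in fl/fl.

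Of 7 genes for condensin I, topoisomerase and the chromosome surface 6 fell. Mki67, which encodes the Ki-67 protein that coats mitotic chromosomes and serves as the usual proliferation marker, had the highest CPM of the set, with 2747 and 2693 CPM in KO, against 4558 and 4726 CPM in fl/fl (-0.77, SE 0.030, edgeR adjusted p = 1.1e-10). Top2a, the topoisomerase that untangles sister chromatids, had 682 and 723 CPM in KO and 1075 and 1085 CPM in fl/fl (-0.62, SE 0.044). The KO libraries differed from each other by far less than from the fl/fl libraries in both genes.

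Condensin I, which loops and compacts chromatin, consists of 5 subunits that did not change equally. The ATPase subunit Smc4 had 518 and 474 CPM in KO, against 764 and 772 CPM in fl/fl (-0.63, SE 0.051), and its partner Smc2 had a similar fold change of -0.63. The HEAT-repeat subunit Ncapg had 146 and 166 CPM in KO, against 223 and 261 CPM in fl/fl (-0.64, SE 0.087). It shares 13.4% of its exon bases with the opposite-strand gene Lcorl, which fell by 0.46. The other HEAT-repeat subunit, Ncapd2, had 534 and 460.4 CPM in KO and 613 and 605 CPM in fl/fl, with a fold change of -0.29 (95% interval -0.42 to -0.16) outside the interval of Smc4 (-0.74 to -0.52). Ncaph, the kleisin that closes the ring, had 142 and 142 CPM in KO and 165 and 150.1 CPM in fl/fl (-0.15, 95% interval -0.32 to 0.02) and was not called. Independently of scaling, the ratio of Ncaph to Smc4 counts was 0.2754 and 0.2996 in KO, against 0.2161 and 0.1944 in fl/fl, while that of Smc2 to Smc4 was 0.615 and 0.649 in KO and 0.622 and 0.635 in fl/fl. These pairs were chosen after the fold changes were seen, and no test of the ratios is given. With 2 libraries per genotype the exact permutation test could not pass 0.05. A ratio of counts does not remove the trend with GC content described below. GC content of the longest transcript was 35% for Ncapg and 40% for Smc2 and Smc4, against 48% for Ncaph and 54% for Ncapd2. The part of GC content in the unequal change of the subunits was not tested.

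**Figure D2:**
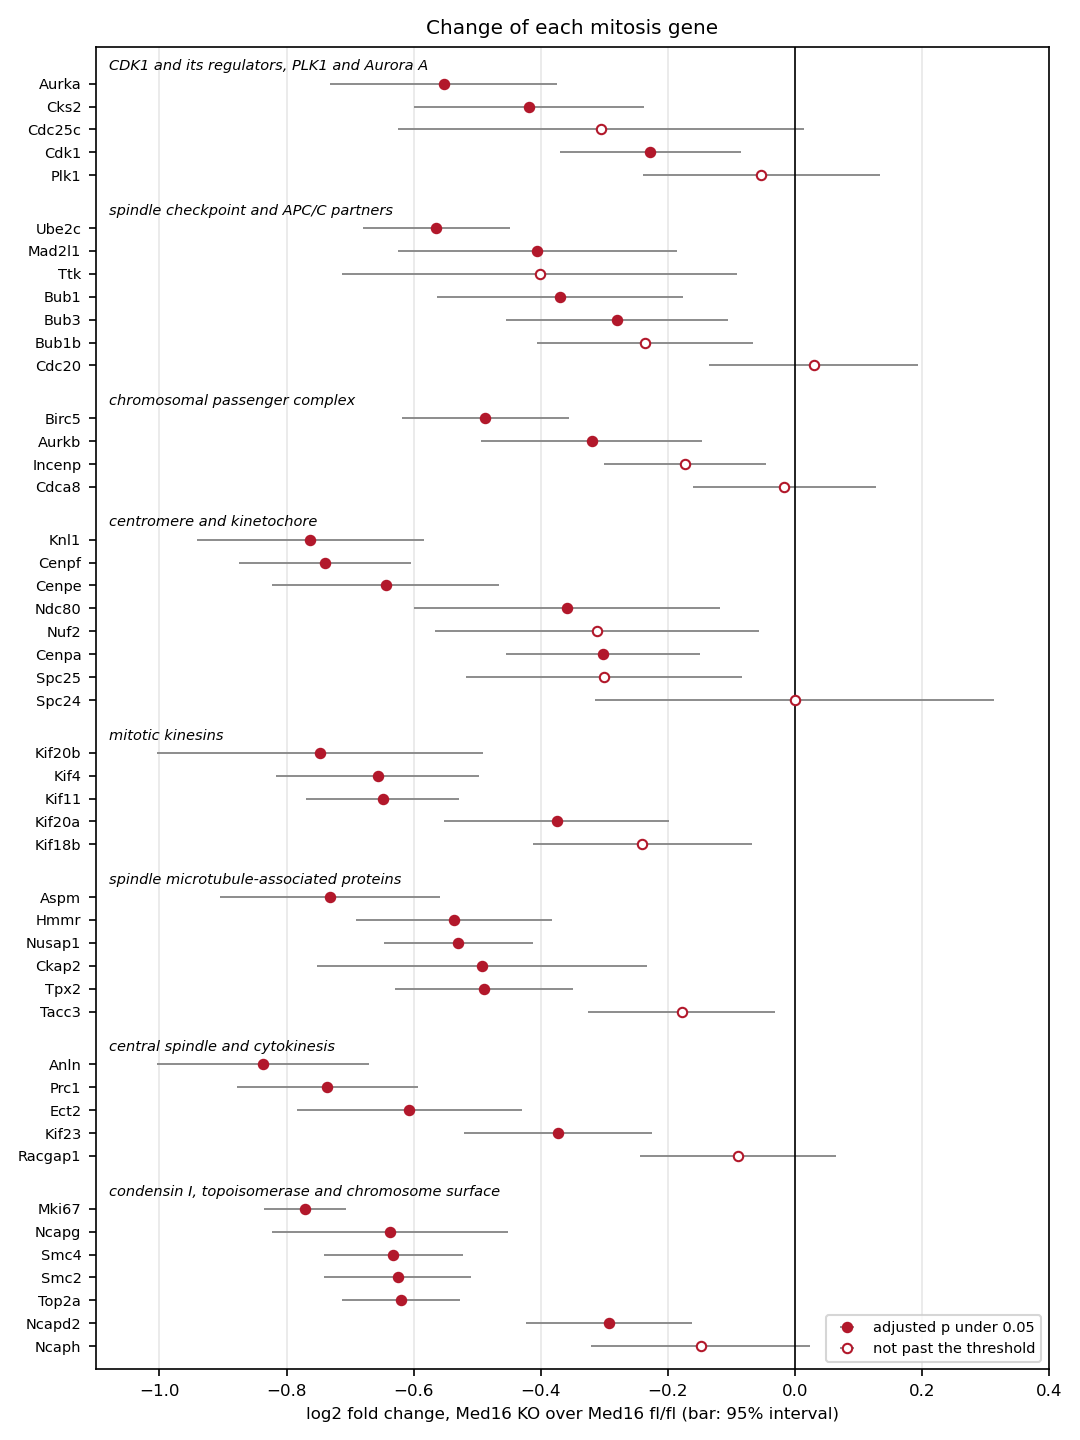
Log2 fold change of each mitosis gene, Med16 KO over Med16 fl/fl, with its 95% interval from the edgeR fit, in the same order as the CPM plot; filled points have an adjusted p under 0.05. The points run from -0.84 for Anln to 0.03 for Cdc20, and every role group holds at least 1 open point.

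Levels were also ranked per kilobase of the longest annotated transcript, which need not be the one expressed. The genes at ranks 1 to 6 were the same in both genotypes, while many ranks below them shifted. Mki67 stood at 270 CPM per kb in KO, against 461 in fl/fl, followed by Ube2c at 188, against 277. Cks2, Top2a, Smc4 and Ncapd2 took ranks 3 to 6 in both genotypes. Cdc20 stood at rank 7 in KO and rank 10 in fl/fl, and Plk1 at rank 10 in KO and rank 17 in fl/fl. Prc1 stood at rank 18 in KO and rank 9 in fl/fl.

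Fold changes in this set moved with base composition and length. Across the 47 genes, which share the same libraries and are not independent replicates, Pearson's r of the log2 fold change was 0.597 with the GC content of the longest transcript and -0.539 with the log of its length; across the 12844 tested genes with a GC value, r was 0.206 and -0.0982. Tested genes were compared over the GC content that the members of each class spanned. Among 23 members with a GC content under 45%, 19 fell, with a median log2 fold change of -0.61. Of tested genes at 34.8% to 44.9%, 16% were called lower, with a median of -0.17. Of the 13 members with a GC content from 45 to 50%, 10 fell, beside 12.0% of tested genes at 45.3% to 48.7%. Of 11 members at 50% or more, 4 fell, with a median of -0.24. Of tested genes at 50.4% to 56.0%, 6.71% were called lower, with a median of 0.11. With an offset that removes the trend with GC content in each library, r across the members was 0.101 and the median was -0.36. Then 31 of 47 were lower, beside 8.76% of all genes tested. With a transcript length offset 39 were lower, beside 10.1% of all genes tested, and the median was -0.45. The part of base composition in the differences between members was not tested.

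**Figure D3:**
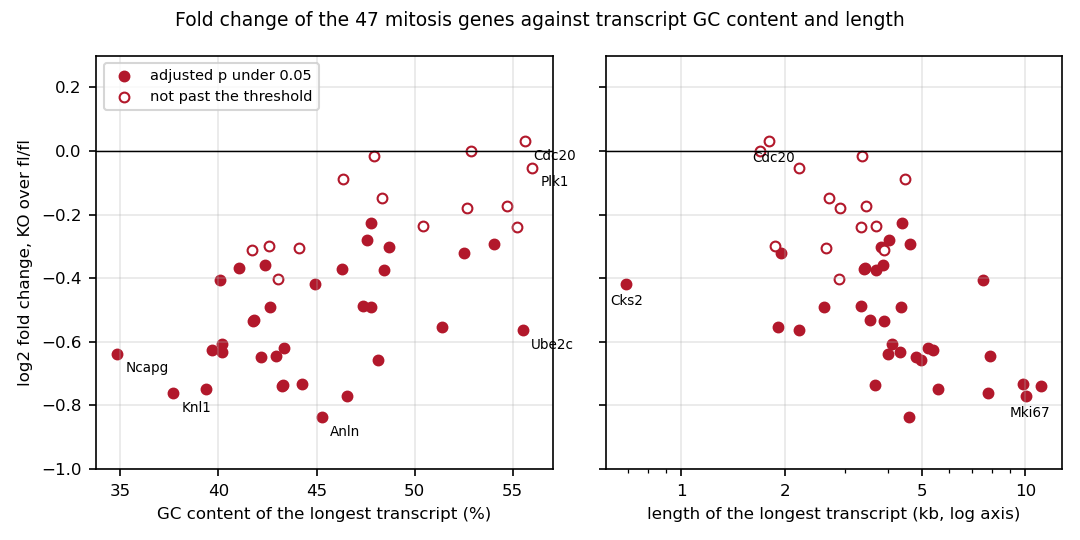
Log2 fold change of the 47 mitosis genes, Med16 KO over Med16 fl/fl, against the GC content (left) and the length (right, log axis) of the longest annotated transcript; filled points have an adjusted p under 0.05. GC-rich Cdc20 and Plk1 lie near 0, while Ube2c, with a similar GC content, lies at -0.56.

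The promoter letters shown above were common in the set, among genes that fell and genes that were not called. A RefSeq promoter window of 300 bases, 250 before and 50 from the start on, was found for 40 of 47 genes, in 43 windows. A CHR (TTTGAA or TTCGAA, both strands) was present in 35 of these 43 windows (81.4%), against 19.2% of all 32851 windows, and a CCAAT box in 33 (76.7%), against 37.4% of all windows. The letters of the motifs may overlap each other, and matches were counted without regard to that. The 32 members with a CHR had a median log2 fold change of -0.51, with 24 lower; the 8 without had a median of -0.41, with 5 lower. Cdc20, Plk1, Cdca8 and Racgap1, whose genotypes overlapped, all had a CHR and a CCAAT box in the window, as did Top2a, Kif11 and Mki67. A match is a run of letters and not evidence that a factor binds there.

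Of 142 other mitosis genes outside the set, in 6 lists, 60 were called lower and 1 higher. Condensin II and cohesin genes were lower for 13 of 18, with a median of -0.31: the condensin II subunit Ncapg2 fell by 0.69 and Esco2, which acetylates cohesin in S phase, by 0.77 on the log2 scale. Without fl/fl library 2, 8 of these 18 were lower. Of 37 other kinetochore and centromere genes 13 were lower (8 with DESeq2, with a GC content offset or under scaling by library size alone, and 6 without either fl/fl library), with a median of -0.38. Among them Sgo1, the shugoshin that protects centromeric cohesion, fell by 0.92 on the log2 scale. The single gene called higher was Cenpb, which encodes a protein that binds satellite DNA of centromeres: it had 145 and 134 CPM in KO, against 74.4 and 81.1 CPM in fl/fl (0.85, SE 0.095, edgeR adjusted p = 1.1e-05). Without KO library 1, 2 genes of that list were higher.

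Of 35 other kinesins and spindle genes 14 were lower (8 without fl/fl library 2), among them Ckap5, a microtubule polymerase, by 0.69 and the kinesin Kif18a by 0.66 on the log2 scale. Other cytokinesis genes were lower for 5 of 11 (3 without fl/fl library 1), including the formin Diaph3, which fell by 0.71, and the kinase gene Rock1, by 0.51. Among 24 regulators of mitotic entry and of G2 transcription 10 were lower (5 without fl/fl library 2): Ccna2, the cyclin A that activates CDK1 and CDK2, had 508 and 542 CPM in KO, against 742 and 784 CPM in fl/fl (-0.54, SE 0.051), and Ccnf fell by 0.65 on the log2 scale. APC/C subunits and partners, which are not confined to mitosis, had a median near 0 (-0.04), with 5 of 17 lower. Cdc23 fell by 0.54 and Fbxo5, the inhibitor of the APC/C, by 0.56.

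DNA replication and S phase genes, the nearest stage of the cycle, were lower for 15 of 32 (9 without either fl/fl library), with a median of -0.24. Pcna, the sliding clamp of DNA polymerase, had 517 and 499 CPM in KO and 684 and 671 CPM in fl/fl (-0.42, SE 0.048), and Rrm2, which makes deoxynucleotides, fell by 0.36 on the log2 scale. The polymerase gene Pold1 was higher (0.33, SE 0.080), but not once GC content was offset or either fl/fl library was left out. Summed over the 47 mitosis genes, CPM was 183% and 180.3% of the summed CPM of the S phase list in KO, against 223% and 228% in fl/fl. No test of this difference between the lists is given.

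**Figure D4:**
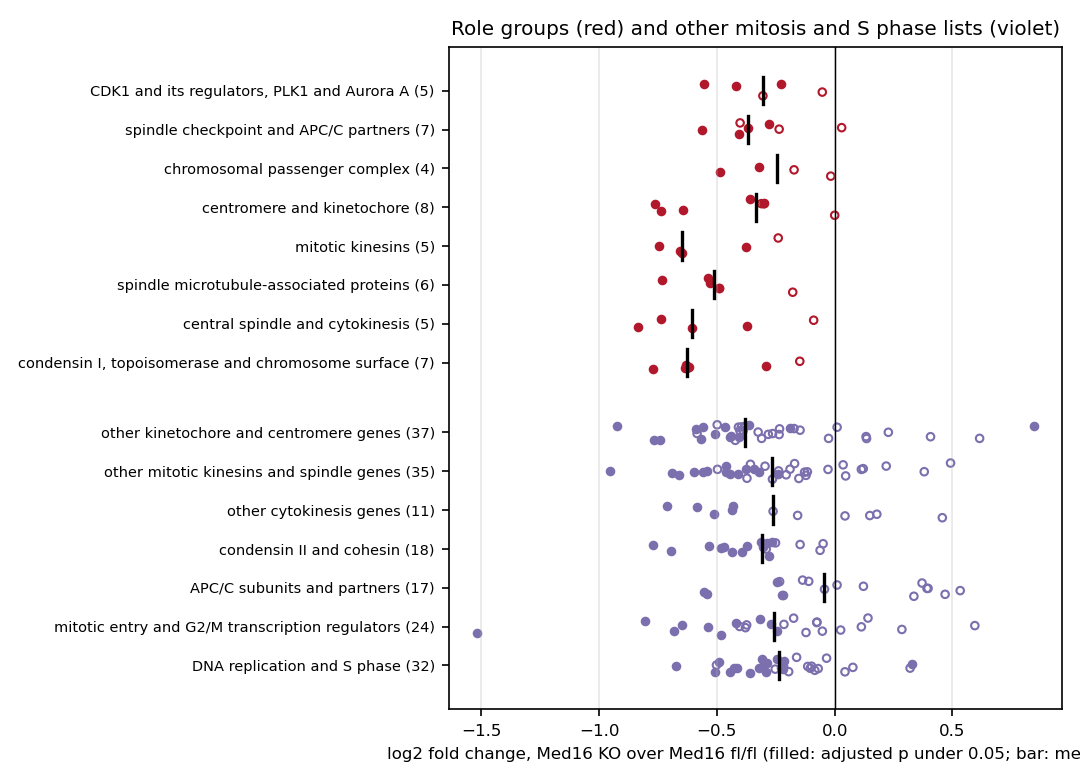
Log2 fold change, Med16 KO over Med16 fl/fl, of every gene in the 8 role groups (red) and in 7 further lists (violet); filled points have an adjusted p under 0.05, bars mark medians, and the number of genes stands in brackets. Red medians run from -0.25 for the passenger complex to -0.65 for the kinesins, and the violet median of the APC/C list lies at -0.04.

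Markers of cell types that could hold dividing cells moved with genotype too. Of 12 erythroid markers 11 fell and 1, Alas2, rose, with a median log2 fold change of -0.53, and their sum was 29263 and 29418 CPM in KO, against 36171 and 36038 CPM in fl/fl. Relative to that sum, the sum of the 47 mitosis genes was 39.1% and 38.4% in KO, against 45.5% and 46.4% in fl/fl. That difference rests largely on Alas2, which made up 38.0% and 38.5% of the erythroid sum in KO, against 28.7% and 28.2% in fl/fl. Without Alas2, a choice made after its value was seen, the mitosis genes came to 63.0% and 62.5% of the erythroid sum in KO, against 63.8% and 64.6% in fl/fl. All 7 markers of neutrophil progenitors, which also divide, rose, with sums of 4580 and 4707 CPM in KO, against 2076 and 2061 CPM in fl/fl; Mpo, the myeloperoxidase of promyelocytes, had 2826 and 2943 CPM in KO and 1183 and 1180.0 CPM in fl/fl. No marker of that list was at 0 in any library. Of 11 late neutrophil markers 9 rose, with sums of 16587 and 16899 CPM in KO, against 13177 and 13021 CPM in fl/fl. The part of these cells in the level of the mitosis genes was not tested.

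Markers of other lineages had lower summed levels. The 10 B cell markers summed to 244 and 249.7 CPM in KO, against 255 and 273 CPM in fl/fl. Of these 10, 8 had a fold change below 0, with a median of -0.34, and 1 was called higher and 0 lower. Megakaryocyte and platelet markers summed to 196 and 197 CPM in KO, against 87.9 and 81.4 CPM in fl/fl, with 7 of 8 tested called higher and 1 of 9 genes at 0 in each library. The 9 monocyte and macrophage markers summed to 649 and 642 CPM in KO, against 561 and 560.0 CPM in fl/fl, with 2 higher and 2 lower. The 7 markers of stem and early progenitor cells summed to 78.6 and 70.7 CPM in KO, against 45.9 and 43.5 CPM in fl/fl, and those of T and NK cells to 44.1 and 43.6 CPM in KO, against 35.6 and 32.8 CPM in fl/fl; up to 2 of the 7 T and NK cell genes and 1 of the 7 stem cell genes were at 0 in a library. Immediate early genes, which handling of cells can raise, were higher for 9 of 14 and lower for 1, with sums of 6810.5 and 6785 CPM in KO, against 5103 and 4961 CPM in fl/fl.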

How the data were processed

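The authors deposited raw counts for each gene in a separate table for every library. The submitters' processing notes name build GRCm39 and, as tools, HISAT2 2.1.0, HTSeq 0.12.4, FastQC 0.11.7, HOMER and DESeq2; neither the annotation release nor the strand setting is given there. The 5 rows that name no gene, 67.3% to 67.7% of all reads, were left out. Their parts differed by genotype. Reads that did not align made up 2.69% and 3.27% in KO, against 1.05% and 0.83% in fl/fl. Ambiguous reads made up 2.96% and 2.93% in KO, against 2.54% and 2.58% in fl/fl. Reads without a unique alignment were fewer in KO, with 24.3% and 23.6%, against 26.4% and 25.3% in fl/fl. Assigned counts totalled 6948951 and 6749196 in Med16 KO, against 7216333 and 7048208 in Med16 fl/fl. At these depths 1 count equals 0.139 to 0.148 CPM, and members had 234 to 32683 counts per library; for many of them libraries of a genotype differed by no more than about the counting error.

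Tests used edgeR 4.0.16 under R 4.3.3: filterByExpr by genotype, TMM, and a two-sided quasi-likelihood test of genotype without covariates, adjusted by Benjamini-Hochberg over 13052 genes and called at an adjusted p under 0.05. The SE is the size of the log2 fold change divided by the square root of F. DESeq2 1.42.0, other scalings and filters, an assumed variation, GC and length offsets (lowess, span 0.3, GENCODE M21), a block by replicate number and fits without each library were alternatives. The same fit was also run on simulated counts, whose means and dispersions were taken from these libraries. Changes were placed in genes with a mean of at least 1 CPM. The fit recovered 18.5% of changes of 1.5-fold, 58.5% of 2-fold and 79.4% of 4-fold. Of its calls 2.91% were unchanged genes. These rates include genes near 1 CPM, whereas members had at least 234 counts in every library, so the rates need not hold for members. A member that was not called may still have changed within its own interval. That interval was -0.16 to 0.13 for Cdca8 and -0.31 to 0.31 for Spc24. Libraries differed by more than sampling noise (chi-square per degree of freedom 5.86 within KO and 2.36 within fl/fl), and each was counted as 1 replicate. The members and lists were chosen with earlier results of these data known. Values in every library are given, within each role group, for the most abundant gene, the 2 largest changes among called genes and each gene not called, and for other genes that a comparison needs; from other lists, the 2 genes with the smallest adjusted p and any called higher are named. Genes beyond that rule, among them Alas2 and Mpo and the opposite-strand partners, were chosen after their values were seen. Opposite-strand overlaps were taken from GENCODE M21 on build GRCm38, so no coordinates of these are given.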

Additional observations from a re-analysis of the deposited data

How the results depend on the processing

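Direction did not reverse for any of the 47 genes' calls under the alternatives run. With an assumed biological coefficient of variation of 0.2, 0 members and 0 genes in each of the 8 role groups were lower, as were 0 other cytokinesis, condensin II and cohesin, APC/C and S phase genes and 1 each of the other kinetochore, other spindle and mitotic entry genes, beside 289 lower and 331 higher of all genes tested (1291 and 1109 in the reported fit); 0 kinetochore and 0 S phase genes were then higher. A GC content offset gave 733 higher genes, 2 checkpoint genes and 8 other kinetochore genes lower, 1 cytokinesis gene higher and 0 S phase genes higher. Library size as the only scaling gave 8 other kinetochore genes lower, 1 cytokinesis and 1 APC/C gene higher, DESeq2 gave 8 other kinetochore genes lower, the length offset gave 1 cytokinesis gene higher, and no filter gave 1 APC/C gene higher. The members' median was -0.35 with library size, -0.43 with no filter, -0.36 with the GC content offset and -0.45 with the length offset.

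Leaving out each library in turn gave 24 to 39 members lower, a median of -0.46 to -0.38, and 704 to 2172 lower and 454 to 1839 higher of all genes. The lower genes numbered 1 to 3 in the CDK1 group, 1 to 6 in the checkpoint group, 1 to 3 in the passenger complex and 3 to 7 in the kinetochore group. In the other lists they numbered 6 to 19 kinetochore, 8 to 18 kinesin and spindle, 3 to 6 cytokinesis, 8 to 13 condensin II and cohesin, 5 to 14 mitotic entry and 9 to 19 S phase genes. Higher genes numbered 1 to 2 kinetochore, 0 to 1 kinesin and spindle, 0 to 2 cytokinesis, 0 to 5 APC/C, 0 to 2 mitotic entry and 0 to 2 S phase genes.

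The numbers in the labels say nothing of a shared animal or batch, and same-numbered libraries deviated together with a correlation of only -0.0102 across genes. With the replicate block 37 members were lower and 0 higher, 1499 of all genes were lower and 1 APC/C gene was higher; the 4 members gained were Bub1b, Kif18b, Nuf2 and Spc25.

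With 2 libraries per genotype the spread rests on few degrees of freedom, and calls near the threshold depend on it. Members with few counts, such as Cdc25c and Ttk, have wide intervals. Genotype cannot be told apart from any unlabelled difference in handling between the pairs of libraries.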
